A study of Mus musculus with 9 samples.

Results

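The clustered histone genes encode the core histones H2A, H2B, H3 and H4 and the linker histone H1, and they are described here by their H3K27ac in naive CD8+ T cells of the mouse. Members were all protein-coding genes of the GENCODE vM1 annotation of the mm9 build (NCBIM37) whose symbol starts with Hist1h, Hist2h, Hist3h or Hist4h, which gave 67 of 22380 protein-coding gene records, 6 for H1, 19 for H2A, 18 for H2B, 11 for H3 and 13 for H4. The choice used symbols and no measured value. H3K27ac, an acetylation of histone H3 that marks active promoters and enhancers, was measured by ChIP-seq in 4 WT and 3 dKO samples, with 1 input sample for each genotype. All animals were young adults on the C57BL/6 background and carried hCD2-Cre, a transgene that acts mainly in T cells past the thymus, and the Rosa26 GFP reporter that marks cells in which Cre was active. WT animals were Tcf7+/+ Lef1+/+, and dKO animals were Tcf7 fl/fl Lef1 fl/fl, so that they lost the transcription factors Tcf1 and Lef1. GFP+ TCRbeta+ CD62Lhi CD44lo-med CD8+ cells were sorted from the spleen.

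The files hold 1 list of enriched regions, called islands, for each genotype, made from the pooled samples. The WT list had 65563 islands with 82668007 counts and the dKO list 82213 islands with 57665047 counts. With 1 list per genotype there was no replicate error and no test was possible, so each ratio is given with a 95% Wilson interval that covers counting error only, and whether it exceeds the spread between animals cannot be told. The targeted genes kept islands in both lists, with 50113 WT and 20781 dKO counts over Tcf7 and 55155 and 28957 over Lef1, which does not check the deletion itself. All 7 CD8 T cell markers examined had islands in both lists. B cell markers also did in 5 of 5 cases, at 1.30 to 3.69 CPM per kb (counts scaled to the same total of island counts in each list, per kb of island) in WT and 1.45 to 3.67 in dKO, against 3.32 to 5.57 and 3.50 to 5.22 for the CD8 T cell markers. Summed over the genes of each marker list, WT and dKO values came to 304 and 418 CPM for B cell markers, with a median ratio per kb of 0.00069, 1921 and 1383 for CD8 T cells, 51.7 and 67.5 for NK cells (Ncr1 had no island), 337 and 388 for myeloid cells, and 80.1 and 88.5 for CD4 markers. An island shared by neighbouring genes was counted for each, as with Cd8a and Cd8b1 in WT, so the CD8 T cell sums count some islands more than once. Cd79b held most of the B cell difference, with an island that widened from 26.6 to 71.2 kb and a ratio of -0.26 per kb, and Cd79a went the other way at -0.21 by counts. The part of these cells in the values below was not tested.

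Most histone protein is made while DNA is copied, and the genes that supply it sit in clusters, in many near-identical copies. They have no introns as a rule, their mRNAs end in a conserved stem-loop in place of a poly(A) tail, and the coactivator Npat gathers at the clusters to drive their transcription in S phase. Naive T cells are resting cells that rarely divide. A few copies, such as Hist1h1t and the Hist1h2ba and Hist1h2aa pair, are known for their use in the testis.

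The sequence that most directly defines the family is the stem-loop. The letters CTTTTCAG, with GG beginning 4 bases before them and CC ending 4 bases after them, searched on the gene's strand from 300 bases before to 300 bases after the annotated 3' end, were present in 37 of 67 members (55.2%) and in 40 of all 22380 genes (0.179%). Capitals mark CTTTTCAG. The first form was found at 27 members, of H1, H2A, H2B and H3, and the other forms at 8 and 2 members, all of them H4. A member without a match has no such letters in this window, whose place depends on the annotated 3' end.
H1, H2A, H2B and H3 form: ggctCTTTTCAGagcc
H4 form: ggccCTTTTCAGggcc
second H4 form: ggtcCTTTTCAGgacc

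At the other end of the gene, 12 pairs of members stood head to head with spacers of 167 to 305 bp (median 228 bp), and each joined an H2A gene to an H2B gene. The spacers below, from NCBIM37, are shown because they carry both promoters of a pair and because the pairs differ in whether H3K27ac was called. Each runs from the H2A to the H2B gene, and capitals mark the octamer ATTTGCAT (the site of the factor Oct1), CCAAT and the TATA letters TATAAA, on either strand. The first pair had an island in both lists, and the others had none. The spacer of Hist1h2ap and Hist1h2br (chr13:21925445-21925611, + strand) is identical to that of Hist1h2ao and Hist1h2bq, with 0 differences, and is not repeated.
Hist1h2ae to Hist1h2bg, chr13:23663090-23663264, + strand: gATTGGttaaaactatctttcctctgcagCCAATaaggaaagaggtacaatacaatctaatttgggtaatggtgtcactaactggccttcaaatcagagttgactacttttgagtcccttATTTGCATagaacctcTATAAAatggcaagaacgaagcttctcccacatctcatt
Hist1h2ao to Hist1h2bq, chr13:21902069-21902235, - strand: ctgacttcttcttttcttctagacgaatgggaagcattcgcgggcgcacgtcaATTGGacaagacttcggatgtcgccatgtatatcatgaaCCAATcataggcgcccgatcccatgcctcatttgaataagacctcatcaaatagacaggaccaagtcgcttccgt
Hist1h2aa to Hist1h2ba, first 300 bases, chr13:24026031-24026330, - strand: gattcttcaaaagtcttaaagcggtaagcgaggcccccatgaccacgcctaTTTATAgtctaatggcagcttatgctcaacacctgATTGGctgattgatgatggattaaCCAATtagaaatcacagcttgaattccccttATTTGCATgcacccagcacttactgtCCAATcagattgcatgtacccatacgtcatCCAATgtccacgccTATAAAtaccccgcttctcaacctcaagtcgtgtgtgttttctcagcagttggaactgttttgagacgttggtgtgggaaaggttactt

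H3K27ac was present at most of the family in both genotypes. An island lay within 1 kb of 59 members in WT (88.1%) and of 60 in dKO (89.6%), against 67.4% and 67.9% of all protein-coding genes. Both lists had one at 59 members, against 65.4% of all genes, and neither at 7, against 30.1%. Hist1h4n had an island in dKO and none in WT, a pattern seen at 2.46% of all genes, and no member had the opposite pattern, seen at 1.99%. In each list, 54 members had their annotated 5' end inside an island. The share of all genes with this was not computed, so the count cannot be called high or low for the family.

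The members shared islands. The 59 WT members lay on 45 distinct islands, which held 53852 counts over 125.2 kb, or 0.0651% of the list, and the 60 dKO members lay on 49 islands with 37933 counts over 147.6 kb, or 0.0658%. These islands were narrow, with a median width of 2.2 kb in both lists, against 3.6 kb for all WT islands and 3.0 kb for all dKO islands. They were also deep. The median depth at members, in CPM per kb of island, was 4.42 in WT and 4.49 in dKO, against 2.89 and 2.50 over all protein-coding genes with islands, and 44 and 54 members exceeded the median gene. Gene windows differ in how much island they touch, with a median of 2.8 kb at members and 13.2 kb at all genes in WT.

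**Figure D1:**
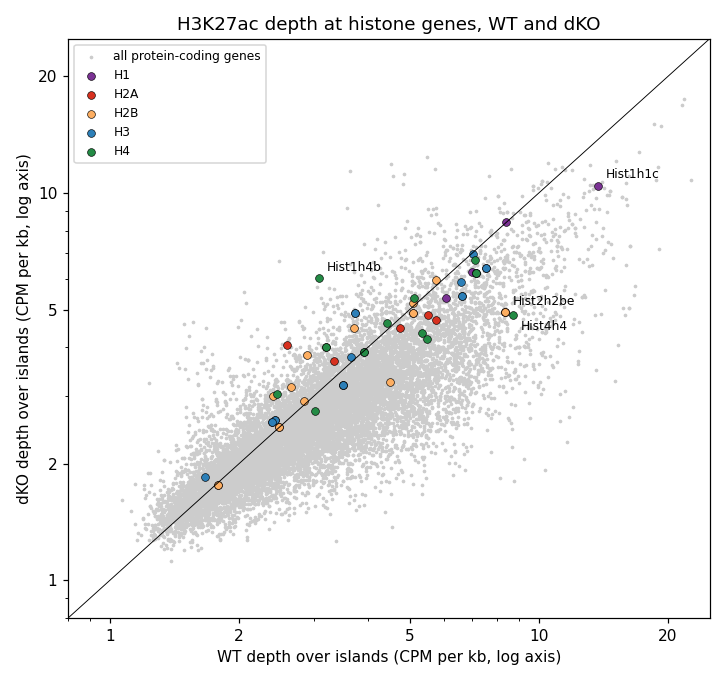
H3K27ac depth in CPM per kb of island, WT on the x axis and dKO on the y axis, both logarithmic, for every protein-coding gene that had islands in each list (grey) and for members coloured by histone class, where each point is a gene and the line marks equal depth. Hist1h1c lies at 13.8 in WT and 10.4 in dKO, and Hist1h4b lies above the line at 3.07 and 6.02.

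Between the genotypes, the sum over the family depended on which islands were counted. For the islands touching members, log2 dKO over WT was 0.014 (95% interval -0.0049 to 0.033), and -0.22 per covered kb. The merged domains holding them sum the islands of each list over the union of overlapping islands. They had 58370 WT counts over 142.6 kb and 38424 dKO counts over 152.8 kb, a ratio of -0.08 (-0.10 to -0.07), and -0.18 per kb. The stretches covered still differ between the lists, and 4 domains had islands in dKO alone and 1 in WT alone. Over the 59 members present in both lists, the log2 ratio had a median of -0.04 and an SD across genes of 0.27, with quartiles of -0.17 and 0.12. The 14641 protein-coding genes for which both ratios exist had a median of -0.08 and an SD of 0.78. Members whose ratio reached 1.5 in a direction were called higher or lower in dKO. By counts, 1 member was called higher (1.69%) against 14.6% of all genes, and 1 was called lower against 14.7%. Per covered kb, 2 members were higher (3.39%) against 1.28% of all genes, and 4 were lower (6.78%) against 14.6%. The interval held 0 for 23 members, lay above 0 for 15 and below 0 for 21. Per covered kb, the ratio of 26 members had the opposite sign to that by counts. These counts have no counterpart over all genes here, so they are not a result about the family. The share of ratios below 0 was 55.9% of members against 56.8% of all genes by counts. Per covered kb it was 55.9% against 74.2%. Members on 1 island share a value, so these counts are not of independent genes.

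**Figure D2:**
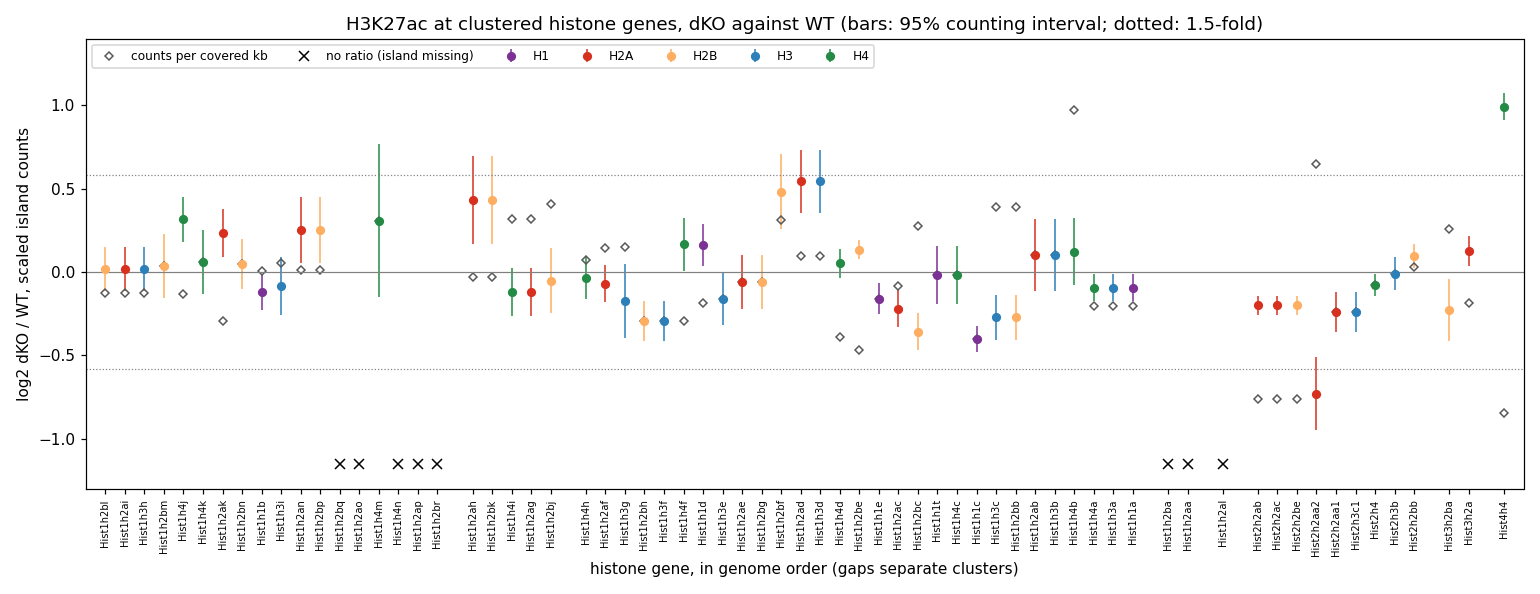
Log2 dKO to WT ratio of scaled island counts for the 67 members in genome order, with gaps between clusters, points coloured by histone class, bars for the 95% counting interval, open diamonds for the ratio per covered kb, dotted lines at 1.5-fold and crosses for members without a ratio. Counts place all members but Hist4h4 (0.99) and Hist2h2aa2 (-0.73) between the dotted lines, and both of these members change side per covered kb.

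The linker histones, which bind the DNA between nucleosomes, included the deepest island of the family. Hist1h1c (chr13:23830676-23832235, + strand), the gene of H1.2, had 3644 counts in WT and 1925 in dKO over an island of 3.2 kb with the same borders in both lists. The log2 ratio was -0.40 (-0.48 to -0.32), and the depth of 13.8 CPM per kb in WT and 10.4 in dKO exceeded that at 99.7% and 99.8% of protein-coding genes with islands. Its promoter is shown because this island had the lowest ratio among domains whose borders did not move. The 250 bases before the annotated start hold CCAAT, in capitals, and neither the octamer nor TATAAA.
Hist1h1c promoter, chr13:23830426-23830675, + strand: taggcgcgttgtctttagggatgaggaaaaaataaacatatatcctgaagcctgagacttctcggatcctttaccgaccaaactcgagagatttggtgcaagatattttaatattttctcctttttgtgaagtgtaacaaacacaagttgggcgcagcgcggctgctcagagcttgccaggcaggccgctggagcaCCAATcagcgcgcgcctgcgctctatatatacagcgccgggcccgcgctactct

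The other somatic H1 genes moved less. Hist1h1b, the gene of H1.5, had 1664 WT and 1068 dKO counts and a ratio of -0.12 (-0.23 to -0.01). Hist1h1e, the gene of H1.4, had 2421 and 1511 counts and a ratio of -0.16 (-0.25 to -0.07). Hist1h1d, the gene of H1.3, was the H1 gene with a ratio above 0, at 0.16 (0.03 to 0.29) with 1107 and 864 counts, and its dKO island was wider at 2.8 kb than the 2.2 kb of WT, so that the ratio per kb was -0.19. Hist1h1a, the gene of H1.1, shared its island with Hist1h3a and Hist1h4a, with 3071 and 2005 counts and a ratio of -0.10 (-0.18 to -0.01). The testis gene Hist1h1t was counted with an island because the island of its neighbour Hist1h4c covered 6.46% of its window, and its own 5' end lay outside any island. The class as a whole had a median ratio of -0.11 and a median depth of 7.06 CPM per kb in WT and 6.22 in dKO, the highest of the classes in each list.

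H2A and H2B form the outer dimers of the nucleosome, and their genes had median ratios of -0.06 (15 of 19 members with islands in both lists) and 0.02 (15 of 18). The highest in Hist1 were on a few weak islands. Hist1h2ad had 441 WT and 449 dKO counts and a ratio of 0.55 (0.36 to 0.74), Hist1h2bf had 318 and 310 counts and a ratio of 0.48 (0.26 to 0.71), and the pair Hist1h2ah and Hist1h2bk had 237 and 223 counts and a ratio of 0.43 (0.17 to 0.70). These islands were wider in dKO, and per covered kb the ratios were 0.10, 0.31 and -0.03. The lowest H2B genes were Hist1h2bc, with 1903 and 1036 counts and a ratio of -0.36 (-0.47 to -0.25), and Hist1h2bh, with 1532 and 873 counts and a ratio of -0.29 (-0.41 to -0.17). The lowest H2A genes of Hist1 were Hist1h2ac, with 1730 and 1036 counts and a ratio of -0.22 (-0.33 to -0.11), and Hist1h2ag, at -0.12 (-0.26 to 0.02) and 0.32 per kb. The ratio of Hist1h2bc includes a 1.8 kb WT island of 173 counts (chr13:23780801-23782600) for which dKO had none, and per covered kb the ratio was 0.27.

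H3 and H4 form the inner tetramer. All 11 H3 members had islands in both lists, with a median ratio of -0.10. Hist1h3d, on the same islands as Hist1h2ad, was highest at 0.55, and Hist1h3b followed at 0.10 (-0.12 to 0.32) with 394 and 295 counts. Hist1h3f, on the island of Hist1h2bh, was lowest in Hist1 at -0.29, and Hist1h3c followed at -0.27 (-0.41 to -0.14) with 1174 counts over 3.8 kb and 678 over 2.4 kb, which per kb was 0.39. Of 13 H4 members, 12 had islands in WT and 13 in dKO, and the median ratio was 0.06. In Hist1, Hist1h4j was highest at 0.32 (0.18 to 0.45) with 943 and 820 counts, and -0.13 per kb. Hist1h4m followed at 0.31 (-0.15 to 0.77) on an island of 81 and 70 counts. The lowest H4 ratios were those of Hist1h4i, at -0.12 (-0.26 to 0.02) with 1005 and 645 counts and 0.32 per kb, and of Hist1h4a at -0.10. Hist1h4b had a ratio of 0.12 by counts and 0.97 per kb, because 457 WT counts covered 1.8 kb and 347 dKO counts covered 1.0 kb.

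The Hist2 genes on chromosome 3 (chr3:96023839-96082924) were the most continuously marked of the clusters with more than 2 members, with islands over 70.7% of the span in WT and 68.4% in dKO. The islands of the 9 members together held 16760 WT and 10817 dKO counts, a log2 ratio of -0.11 (-0.15 to -0.08), and with the islands between members the span held 18323 and 11588, a ratio of -0.14 (-0.17 to -0.11). Hist2h2ab, Hist2h2ac and Hist2h2be shared an island of 9.2 kb with 6343 counts in WT and of 13.6 kb with 3855 counts in dKO, so that the ratio was -0.20 (-0.26 to -0.14) by counts and -0.76 per kb. In the merged domain (chr3:96021801-96042400), where 4 WT and 3 dKO islands covered 18.6 and 18.8 kb, the ratios were -0.26 (-0.31 to -0.21) by counts and -0.28 per kb. Hist2h2aa1 and Hist2h3c1 shared islands of 1496 and 884 counts with a ratio of -0.24 (-0.36 to -0.12). Of these, 1348 and 769 counts lay on the 5' side of both genes (chr3:96047201-96049400), outside the genes. The annotated 5' ends lay in no island of either list. With the gene body alone the ratio of both was 0.16 (-0.19 to 0.51), on 148 and 115 counts. Hist2h4 had 4570 and 3017 counts and a ratio of -0.08 (-0.15 to -0.01), Hist2h3b had 1973 and 1366 counts and a ratio of -0.01 (-0.11 to 0.09), and Hist2h2bb had 3794 and 2827 counts and a ratio of 0.10 (0.02 to 0.17).

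Hist2h2aa2 was the member called lower by counts, with 557 over 2.6 kb in WT and 234 over 1.0 kb in dKO, a ratio of -0.73 (-0.95 to -0.51). Per covered kb it was called higher, at 0.65. The loss of counts lay in a domain on the 5' side of the gene (chr3:96044401-96046600, gene on the - strand). There, 435 WT counts spanned 2.2 kb and 143 dKO counts spanned 0.6 kb, a ratio of -1.09 (-1.36 to -0.81). The small island over the 3' part of the gene kept its borders, with 122 and 91 counts and a ratio of 0.10 (-0.29 to 0.49). Only 13.25% of its sequence was unique, and the annotated 5' end lay in no island of either list.

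Hist3 and Hist4 hold few genes. In Hist3 on chromosome 11, Hist3h2ba had 612 WT and 364 dKO counts and a ratio of -0.23 (-0.42 to -0.04), which per kb was 0.26, since the dKO island was narrower. Hist3h2a had 2275 and 1729 counts and a ratio of 0.12 (0.03 to 0.21) in its window, and the direction turned to -0.20 (-0.29 to -0.11) over the merged domain, -0.19 per kb and -0.42 with the gene body alone. Hist4h4 (chr6:136752589-136752900, - strand), a copy of the H4 gene that stands apart from the other clusters, was the member called higher by counts, with 2013 in WT and 2794 in dKO and a ratio of 0.99 (0.91 to 1.08). The WT count came from an island of 2.8 kb and the dKO count from an island of 10 kb that also spanned the neighbouring histone variant gene H2afj, whose separate WT island had 2827 counts. Over the whole merged domain (chr6:136750801-136761000), 4840 WT and 2794 dKO counts gave a ratio of -0.27 (-0.34 to -0.21). The call at Hist4h4 rests on 1 dKO island in place of 2 WT islands, and per covered kb its window ratio was -0.84.

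Islands of both lists that overlapped were merged into 49 domains holding members, of which 26 held 1 member, 18 held 2 and 5 held 3. Both lists had islands in 44 domains, dKO alone in 4 and WT alone in 1. The 44 shared domains had a median log2 ratio of -0.01 by counts and -0.02 per kb, against -0.07 and -0.02 over all 45322 regions of both lists and -0.21 and -0.20 over the 10693 such regions at protein-coding 5' ends. By counts, 2 domains were called higher and 1 lower, against 11.1% and 14.6% of all regions, and per kb 2 were higher and 0 lower, against 1.17% and 4.51%. The domains higher by counts were chr13:23696201-23700400 within the long annotated transcript of Hist1h2be, at 0.82 (0.58 to 1.07) with 247 and 305 counts, and chr13:23667601-23668800 at Hist1h2ad and Hist1h3d, at 0.70 (0.35 to 1.05) with 123 and 139 counts. Both had wider dKO islands, and per kb their ratios were -0.25 and -0.30. Across the 44 domains, the rank correlation of WT and dKO depth was 0.90 (Spearman's rho), and across all genes with islands in both lists it was 0.84. These are descriptions, since the points of a list share its libraries.

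Borders of these domains were often the same in both lists. Of 41 domains with 1 island per list, 15 had identical borders (36.6%), against 10.1% of all 30817 such regions and 9.08% of the 6418 at protein-coding 5' ends. Borders fall on 200 bp windows, and narrow islands have fewer windows in which to differ. Some of the 15 lay in sequence with few unique positions. These were 0.4 kb at Hist1h4m (21.75% unique), 0.4 kb at Hist2h2aa2 (13.25%) and 0.2 kb at Hist2h2aa1 and Hist2h3c1 (24.5%). The part of mappability in the share of identical borders was not tested. The dKO island was wider in 13, narrower in 11 and of equal width in 17. With identical borders the count ratio ranged from -0.40 to 0.42 with a median of 0.04, and 7 of the 15 lay below 0.

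By position, the family formed 8 groups when members more than 100 kb apart were separated. The largest ran from Hist1h4h to Hist1h1a (chr13:23622919-23856283) with 29 members, all with islands in both lists, and had 27842 WT and 18565 dKO counts over its span, a ratio of -0.07 (-0.09 to -0.04). The stretch from Hist1h2bl to Hist1h2br (chr13:21807632-21929399), with 18 members, had 7730 and 6386 counts over its span, a ratio of 0.24 (0.20 to 0.29), and islands over 21.5% of its span in WT and 30.5% in dKO. The islands of its members alone gave 0.16 (0.11 to 0.21), the median ratio of its members was 0.05, and 3 of its 12 WT islands and 5 of its 16 dKO islands lay off the members. The 5 members from Hist1h2ah to Hist1h2bj had 1242 and 868 counts and a ratio of 0.0027 (-0.12 to 0.13).

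**Figure D3:**
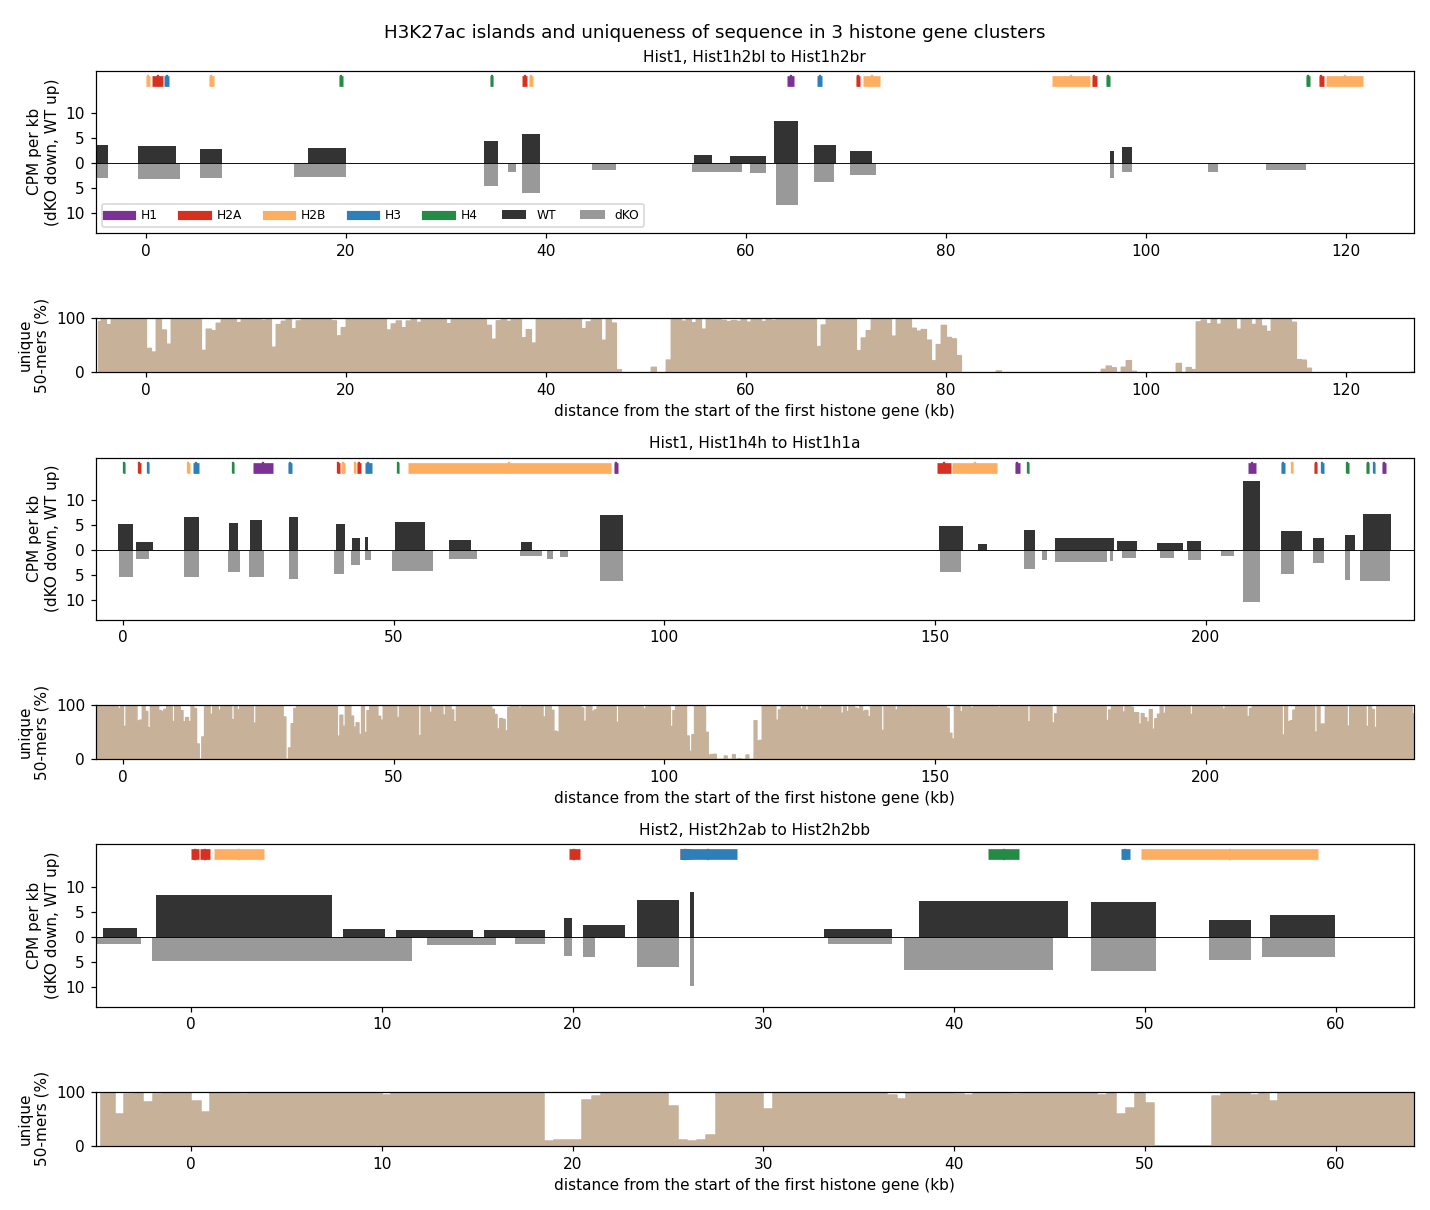
Islands in 3 histone clusters by distance from the first histone gene in kb, with bar height giving depth in CPM per kb (WT up, dKO down), gene bars above coloured by class, and in the lower tracks the percentage of 50-base sequences in each 0.5 kb bin that occur once in the genome. In the first cluster the 6 genes at the right lie where few sequences are unique and few islands were called, and in the last, Hist2h2aa1 is drawn beneath Hist2h3c1.

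Reads were kept where they mapped to a single place, and histone genes are copies of each other, so the uniqueness of their sequence was measured. Of the 50-base sequences within 1 kb of the 5' end, a median of 79.3% per member occurred once in the genome, against 100% for 1116 other protein-coding genes taken at every 20th position. Under 90% of sequences were unique at 48 members (71.6%), against 165 of those genes (14.8%), and under 50% at 9 members (13.4%), against 57 (5.11%). The read length is not stated, and longer reads would find more unique positions.

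Members without an island were those in copied sequence, the pair Hist1h2ba and Hist1h2aa in mostly unique sequence, and Hist1h2al, which lay between. Hist1h2bq, Hist1h2ao and Hist1h4m are repeated in inverted order as Hist1h4n, Hist1h2ap and Hist1h2br. Hist1h2bq and Hist1h2br were identical over 3788 bp, Hist1h2ao and Hist1h2ap over 519 bp, and Hist1h4m and Hist1h4n differed at 1 of 402 bases. From 0% to 11.3% of the sequences in these 6 gene windows were unique, and 20.9% in the 50.5 kb that hold them (chr13:21888570-21939044). Hist1h2bq, Hist1h2ao, Hist1h2ap and Hist1h2br had no island in either list. Hist1h4m had an island of 0.4 kb, with 81 counts in WT and 70 in dKO. The dKO island at Hist1h4n, 302 counts over 4.0 kb (chr13:21919601-21923600), lay beside the gene in sequence that was 77.1% unique and did not reach the gene itself. For these genes the absence of an island cannot be told apart from the absence of mappable reads. Hist2h2aa1 and Hist2h2aa2 were likewise identical over 578 bp, with 34.9% and 36.9% of their windows unique.

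In contrast, the testis genes Hist1h2ba (chr13:24025637-24026025, - strand) and Hist1h2aa (chr13:24026331-24026720, + strand) had no island in either list although 94.2% and 94.1% of the sequences in their windows were unique. The sequences over their spacer, printed above, were 100% unique. Hist1h2al, which stands alone at chr13:51298057-51298434, had no island with 72.5% unique sequence. Members with a WT island had a median of 84.8% unique sequence.

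**Figure D4:**
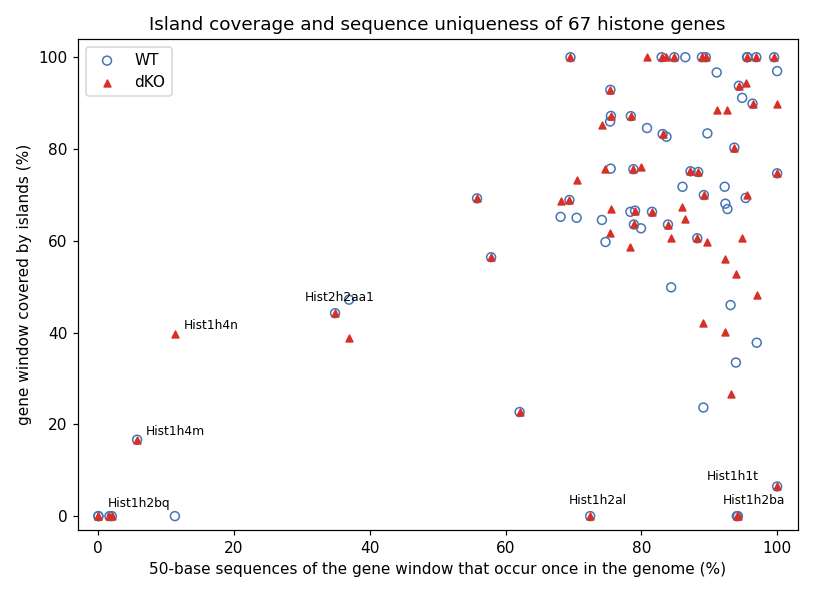
Percentage of each gene window (gene and 1 kb either side) covered by islands against the percentage of its 50-base sequences that occur once in the genome, for 67 members in WT (circles) and dKO (triangles). Of the 6 members with at most 11.3% unique sequence, 4 lie at 0, Hist1h4m lies at 16.7% in both lists and Hist1h4n at 39.7% in dKO, and Hist1h2ba, Hist1h2al and Hist1h1t lie at 0 or 6.46% with 72.5% to 100% unique sequence.

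Of the 12 head-to-head pairs, 9 shared an island in both lists, and the 3 without islands were the 2 copies of the Hist1h2ao pair and the testis pair. Their spacers, of at most 305 bp, were shorter than the 400 bp gap allowed within an island. Sharing was therefore nearly given by the spacing, and it does not show that pairs were marked as units. In the 300 bases around each annotated 5' end (250 before and 50 after), both strands searched, ATTTGCAT was present at 8 of 18 H2B and 7 of 19 H2A members and at no H1, H3 or H4 member, in all 22.4% of members against 1.72% of all protein-coding genes. CCAAT was present at 85.1% against 37.9%, and at every H1, H2A and H2B member but 4 of 13 H4 members. TATAAA was present at 56.7% against 13.4%. CTTTGAT, a core of the Tcf and Lef motif, was present at 4 members (5.97%) against 3.47%, namely Hist1h2bf, Hist1h2ad, Hist1h2bh and Hist3h2a. Divergent pairs share bases of their windows, and for 8 members the annotated gene starts at the ATG, so their windows need not hold the true start. Hist1h2be is annotated over 37383 bp, against a median of 530 bp, and its annotated 5' end lay in the island of Hist1h1e. Its motif window and island counts need not describe the H2B coding part. Of the 15 members with the octamer, all but Hist1h2ba and Hist1h2aa had islands in both lists, as did 59 of all 67 members. These matches are letters and were not tested for binding.

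Other genes of histone production were examined as lists. Of 13 annotated histone variant genes outside the clusters, 9 had islands in both lists. By counts, 2 were called higher (22.2%) and 0 lower, against 14.6% and 14.7% of all genes. These were H2afy, the gene of macroH2A1, at 1.1 (1.06 to 1.15), and H2afv, an H2A.Z gene, at 0.82 (0.74 to 0.90), with islands that widened from 30.0 to 65.0 kb and from 8.6 to 24.0 kb. Per kb their ratios were -0.01 and -0.66. Of 27 regulators and mRNA processing factors, all had islands in both lists, 1 was called higher (3.70%) and 4 lower (14.8%) by counts, the latter close to the share of all genes, with a median ratio of -0.18 against -0.08. Lsm10, part of the U7 particle that cuts histone mRNA, had a ratio of 2.70 (2.60 to 2.80), with an island that widened from 3.2 to 23.4 kb, and -0.17 per kb. The lower ones were the histone chaperone Asf1a at -1.01, the cleavage factor Cstf2 at -0.80, the cyclin Ccne2 at -0.77 and the scaffold Sympk at -0.61, and all 4 had narrower dKO islands and ratios above 0 per kb. By the ratio per kb, 1 of the 27 was called higher, Cstf2 (0.64), and 4 others lower, against 1.28% and 14.6% of all genes. These 4 were Casp8ap2 (-0.69), Cpsf3 (-0.83), Cpsf4 (-0.82) and Cstf3 (-0.97). Npat had 2267 WT and 1225 dKO counts and a ratio of -0.37 (-0.47 to -0.27). Of 14 S phase and division genes, 0 were called higher and 4 lower by counts (28.6%, against 14.7% of all genes), with a median of -0.25. Those were Mki67 (-0.63), Ccna2 (-0.71), Mcm3 (-1.12) and Mcm6 (-0.61), whose ratios per kb were -0.09, -0.63, 0.11 and -0.21. Per kb, 0 of the 14 were called higher and 3 lower, Ccna2, Mcm7 (-0.66) and Pcna (-0.98), against 1.28% and 14.6% of all genes.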

How the data were processed

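ChIP-seq reads were aligned by the authors to mm9 with Bowtie2 (version 2.2.5), uniquely mapped reads were kept, the samples of a genotype were pooled, and islands were called with SICER (version 1.1, window 200 bp, gap 400 bp, FDR 0.01). FastQC is also named in the submitters' notes. The deposited lists give raw counts per island, not scaled for depth or width. No count exists where no island was called. Whether duplicates were removed is not stated, and reads are not independent molecules.

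Islands overlapping a gene and 1 kb either side by at least 1 bp were summed per gene, and counts were divided by the total island counts of the list (CPM). Total sequencing depth is not known from these lists. Intervals for log2 ratios are 95% Wilson intervals. Coordinates are counted from 1. Motifs and 50-base sequences were searched in NCBIM37, both strands for the latter. Python 3.11.15, NumPy 2.4.6, pandas 2.3.3, SciPy 1.17.1, numba 0.67.0, edlib 1.3.9.post1 and Matplotlib 3.10.9 were used, and the scripts were tested on simulated data.

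Every member of Hist2, Hist3 and Hist4, every H1 gene, members without islands in both lists, and in Hist1 the 2 highest and 2 lowest genes of each core class were named. Members and gene lists were chosen with earlier results of these data known. Alternatives were other windows, scalings, island filters, ratios and pseudocounts, given in the closing section. Symbols that were pseudogenes (3 of 70) were left out.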

Additional observations from a re-analysis of the deposited data

How the results depend on the processing

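The counts of members called at 1.5-fold depended on the window, because each rests on 1 to 4 genes. By counts, 1 higher and 1 lower became 2 and 0 with the gene body alone or 5 kb flanks, and 0 and 0 at a ratio of 2. With the gene body, the 2 were Hist4h4 and Hist1h3d (0.70). With 5 kb flanks they were Hist1h2ag and Hist1h2bj, at a shared 0.89 that takes in a neighbouring dKO island of 652 counts. With islands within 5 kb joined there were 5 higher and 0 lower. The number higher was 3 with scaling by the counts, or by the median ratio, of regions of both lists, and 2 with 10 pseudocounts, where Hist1h4n, without a WT island, entered as the additional call. The number lower was 0 for islands of at least 3 CPM and 4 with counts shared out inside the window. Per covered kb, the 2 higher became 1 with the gene body alone or islands of at least 3 CPM, 0 with 5 kb flanks and 0 at a ratio of 2. The 4 lower became 10 with islands joined and 0 at a ratio of 2. Joining moved the median ratio by counts from -0.04 to 0.14 and the domains from 49 to 19. The scalings raised every ratio by 0.07, which put the median at 0.03 and 0.04. After seeing the data, whole merged domains gave 0 higher, and leaving out members under 50% unique sequence gave 0 lower by counts and 1 higher per kb.

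The ratio of Hist2h2aa2 (-0.73) turned to 0.10 with the gene body alone and to 0.24 with counts shared out. That of Hist4h4 (0.99) turned to -0.19 with 5 kb flanks, -0.84 with counts shared out and -0.27 for the merged domain. That of Hist3h2a (0.12, not called) became -0.42 with the gene body or the 5' end alone, -0.58 with 5 kb flanks, -0.29 with counts shared out, -0.20 for the merged domain and 1.64 with islands joined. Joining also turned Hist1h1c from -0.40 to 0.43, a value then shared by every member from Hist1h1c to Hist1h1a. It moved Hist1h1t and Hist1h4c from -0.02 to 1.44, and Hist4h4 to 2.33. The other 73 values over the whole family were within 1.5 times the main count or the counting interval. No paired analysis was possible because each list pools its samples and holds no values per replicate, so leaving out a replicate was not run either. The counting interval reached a median of 0.14 to either side on the log2 scale, less for deep islands and more for shallow ones.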
